A study of Mus musculus with 167 samples.

Results

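The miR-30 family was followed through the microRNA (miRNA) count tables of lung, heart, brain, white blood cells (WBC) and red blood cells (RBC). Its members were the rows named for arms of the miR-30a to miR-30e hairpins, taken by name and not by level: mmu-miR-30a-5p, mmu-miR-30b-5p, mmu-miR-30c-5p, mmu-miR-30d-5p, mmu-miR-30e-5p, mmu-miR-30a-3p and mmu-miR-30e-3p (written below without the mouse prefix). They were 7 of the 1915 miRNAs in each of the 5 tables. The tables also held 5 further miR-30 entries, which were miR-30b-3p, miR-30c-1-3p, miR-30c-2-3p, miR-30d-3p and miR-30f, and these are given only for comparison.

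Mice of the C3Hf/Sed/Kam strain (C3H) and of the C57Bl/6 strain (C57) received whole thorax lung irradiation (WTLI) as 1 dose or a sham exposure, and miRNAs were sequenced in the animals still alive at the endpoint. The endpoint was month 4 in C3H and month 6 in C57, so strain and time after exposure cannot be told apart. Lung, heart, brain and RBC came from 8 sham and 7 irradiated C3H mice and from 15 sham and 5 irradiated C57 mice, and WBC from 5, 6, 11 and 5 of them. No genetic change is named for any group, and mice were anesthetized with ketamine and xylazine before irradiation. All C3H mice were female, whereas 4 of the 5 irradiated C57 mice and 8 of the 15 C57 sham mice were male. Each library came from 1 animal, and irradiated groups held survivors only.

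Each miRNA gene is transcribed as a precursor that folds into a hairpin, from which enzymes cut a duplex of a 5p arm and a 3p arm. One arm is usually kept in the silencing complex and guides it to messenger RNAs that pair with its seed, bases 2 to 8, while most copies of the other arm are degraded. The 5p arms of the miR-30 family share a seed and are abundant in lung, heart, kidney and other differentiated tissues, where family targets known from other work include transcripts for connective tissue growth factor, Snail and other mesenchymal genes.

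The mature sequences show why the family is described as 1 group and where its counts may be shared. RefSeq sequences on GRCm38.p6 were matched for 5 of the 7 members, and they are written 5′ to 3′ with the seed in capitals.
miR-30a-5p: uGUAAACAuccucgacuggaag
miR-30c-5p: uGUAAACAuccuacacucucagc
miR-30e-5p: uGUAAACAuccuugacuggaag
miR-30a-3p: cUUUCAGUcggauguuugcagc
miR-30e-3p: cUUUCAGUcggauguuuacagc
The 3 matched 5p arms shared their first 12 bases. Counted from 1 at the 5′ end, miR-30a-5p differed from miR-30e-5p by C13U alone, and from miR-30c-5p by 5 substitutions, C13A, G14C, G18C, G19U and A20C. The 3p arms of miR-30a and miR-30e differed by G18A alone. How reads that fit both of a near-identical pair were assigned was not stated, so the split between miR-30a and miR-30e is uncertain in either arm. Outside the family, the seed GUAAACA was also that of miR-384-5p.

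The genes with a matched sequence lay on chromosomes 1 and 4. Mir30a (chr1:23272269-23272339, plus strand) overlapped no other annotated gene, and miR-30a-5p occupied chr1:23272274-23272295 and miR-30a-3p chr1:23272315-23272336. The hairpin below has the cut arms in capitals, with 19 bases of loop between them.
Mir30a: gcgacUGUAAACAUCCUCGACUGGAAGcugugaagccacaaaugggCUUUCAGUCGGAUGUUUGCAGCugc
Mir30c-2 (chr1:23291701-23291784, plus strand) lay in an exon of the lincRNA Gm27028. Mir30e (chr4:120772606-120772697, minus strand) and Mir30c-1 (chr4:120769534-120769622, minus strand) both lay in introns of Nfyc, which encodes a subunit of the transcription factor NF-Y and is read from the same strand. The mature miR-30c-5p can come from Mir30c-1 or Mir30c-2, and the tables hold 1 entry for it. Mir30f is annotated opposite Mir30e, and miR-30f had 0 counts in every library.

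Libraries held 1795000 to 7865100 miRNA counts (167 libraries, 35 animals). Levels are given as RPM, the share of a library's total miRNA counts scaled to 1000000, a scale on which a rise of one abundant miRNA lowers the others. The tissue labels were checked with marker miRNAs. In C57 sham mice, the summed level of 4 cardiac muscle markers was 222477 to 298863 RPM in heart and 2724 to 7697 RPM in lung, and that of 4 brain markers was 123050 to 165708 RPM in brain and at most 808 RPM in heart. The blood fractions were not set apart by their markers: 5 leukocyte markers summed to 16287 to 33448 RPM in WBC and 17656 to 45244 RPM in RBC, and 4 erythrocyte markers to 23204 to 106907 RPM in WBC and 31039 to 106323 RPM in RBC. In heart, irradiated C3H replicate 3 stood apart, with 50690.1 RPM of cardiac markers against 152407 to 246805 RPM in the other 6 irradiated C3H hearts.

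The family made up 4.04% ± 0.911 (SD, n = 23) of all miRNA counts in sham lung, 2.66% ± 0.531 (n = 23) in heart, 2.19% ± 0.330 (n = 23) in brain, 1.76% ± 0.776 (n = 16) in WBC and 1.17% ± 0.359 (n = 23) in RBC. A different member led in different tissues. In lung, miR-30a-5p held 45.7% ± 3.24 of the family and was its highest member in 23 of 23 sham libraries, followed by miR-30d-5p at 25.6% ± 6.58. In heart, miR-30c-5p led in 22 of 23 libraries with 25.4% ± 3.54 of the family. In brain, miR-30a-5p led in 18 of 23 libraries with 24.9% ± 1.46. In blood, miR-30e-5p led with 36.3% ± 5.18 in WBC, where it was highest in 11 of 16 libraries, and with 40.4% ± 6.88 in RBC, where it was highest in 20 of 23. The 3p arms never led.

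**Figure D1:**
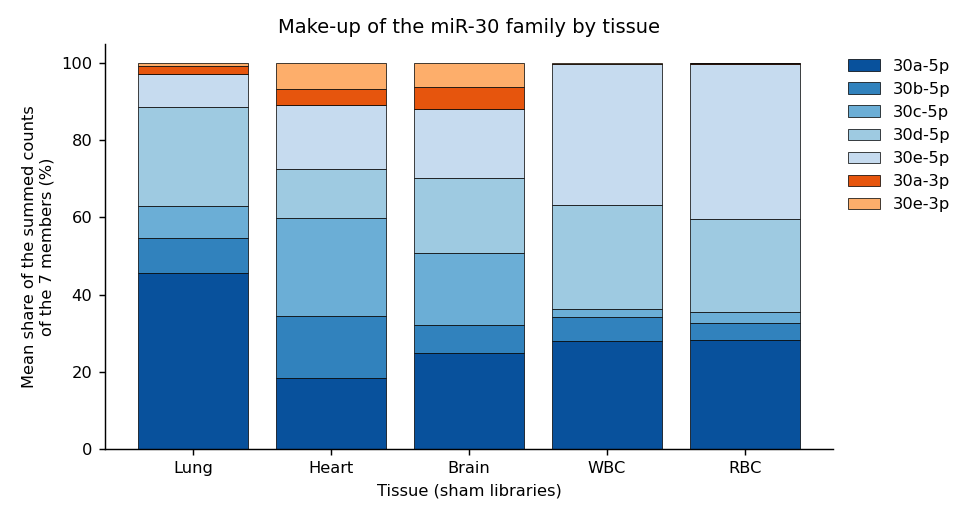
Mean percent of the summed miR-30 counts taken by each of the 7 members, stacked to 100, for sham libraries of each tissue. The miR-30a-5p share is widest in lung (45.7%) and the miR-30e-5p share is widest in RBC (40.4%), while both 3p arms are visible only in lung, heart and brain.

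Levels of single members differed between sham tissues, as most miRNAs did. With limma on log2 RPM and Benjamini-Hochberg adjustment over 524 miRNAs, 5 of 7 members differed between lung and heart (67% of all tested), 7 between lung and brain (87.2%), 7 between lung and WBC (88.7%) and 7 between lung and RBC (85.7%). Between heart and brain 5 of 7 differed (88.4%), between heart and WBC 5 (89.9%) and between heart and RBC 6 (88.5%). Between brain and WBC 6 differed (90.3%), between brain and RBC 7 (93.5%) and between WBC and RBC 3 (41.2%). The members' shares were near or below those of all miRNAs in the pairs that set heart against another tissue.

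miR-30a-5p, first of the members in lung but not in heart, WBC or RBC, had 12044 to 29138 RPM in sham lung (median 18317), 4146 to 6815 in brain (median 5585), 3246 to 6758 in heart (median 4680), 1823 to 11142 in WBC (median 4825) and 1704 to 7176 in RBC (median 3207). The lowest lung library lay above the highest of the other 4 tissues. Lung exceeded brain by 1.67 ± 0.12 on the log2 scale (SE, adjusted p = 1.37e-24, limma). On the RPM scale brain and heart (adjusted p = 0.130), heart and WBC (adjusted p = 0.132) and WBC and RBC (adjusted p = 0.101) did not pass the test, and the places of brain and heart against each other and against blood changed with the scaling. miR-30d-5p had a like order, with 4789 to 16705 RPM in lung (median 9915) and medians of 4080 in brain, 4327 in WBC, 3151 in heart and 2675 in RBC. Lung exceeded brain by 1.26 ± 0.10 on the log2 scale (SE, adjusted p = 7.89e-23), brain and WBC did not pass the test (adjusted p = 0.596), and the places of the 4 lower tissues changed with the scaling.

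The other 5p arms were not highest in lung. miR-30c-5p had 3418 to 11479 RPM in heart (median 6395), 2260 to 7179 in brain (median 4421), 2146 to 5588 in lung (median 3083), 150 to 851 in RBC (median 300) and 123 to 866 in WBC (median 273). Heart exceeded lung by 1.06 ± 0.14 on the log2 scale (SE, adjusted p = 1.68e-11), and lung exceeded RBC by 3.45 ± 0.16 (adjusted p = 7.69e-40). All lung libraries lay above all blood libraries. Brain exceeded lung by 0.34 ± 0.14 in RPM (adjusted p = 0.0205), a direction that turned under the other scalings. miR-30b-5p had medians of 3282 RPM in heart, 3216 in lung, 1526 in brain, 782 in WBC and 471 in RBC. Heart and lung did not pass the test for miR-30b-5p (log2 difference 0.39 ± 0.22, adjusted p = 0.110), nor did WBC and RBC (0.40 ± 0.30, adjusted p = 0.279), and its brain level was above blood in RPM but not under every other scaling.

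miR-30e-5p was the most even member. Its sham medians were 6173 RPM in WBC, 4545 in RBC, 4609 in heart, 4002 in brain and 3343 in lung. In the order fitted for RPM, WBC and RBC (adjusted p = 0.398), RBC and heart (adjusted p = 0.282) and heart and brain (adjusted p = 0.343) did not pass the test. Brain exceeded lung by 0.31 ± 0.14 on the log2 scale (SE, adjusted p = 0.0381) in RPM and was lower than lung under the other scalings. miR-30e-5p was the only member whose level in lung lay below that in both blood fractions (0.75 ± 0.15 on the log2 scale below WBC, 0.60 ± 0.14 below RBC). That direction held under each of the 3 other scalings and tools.

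**Figure D2:**
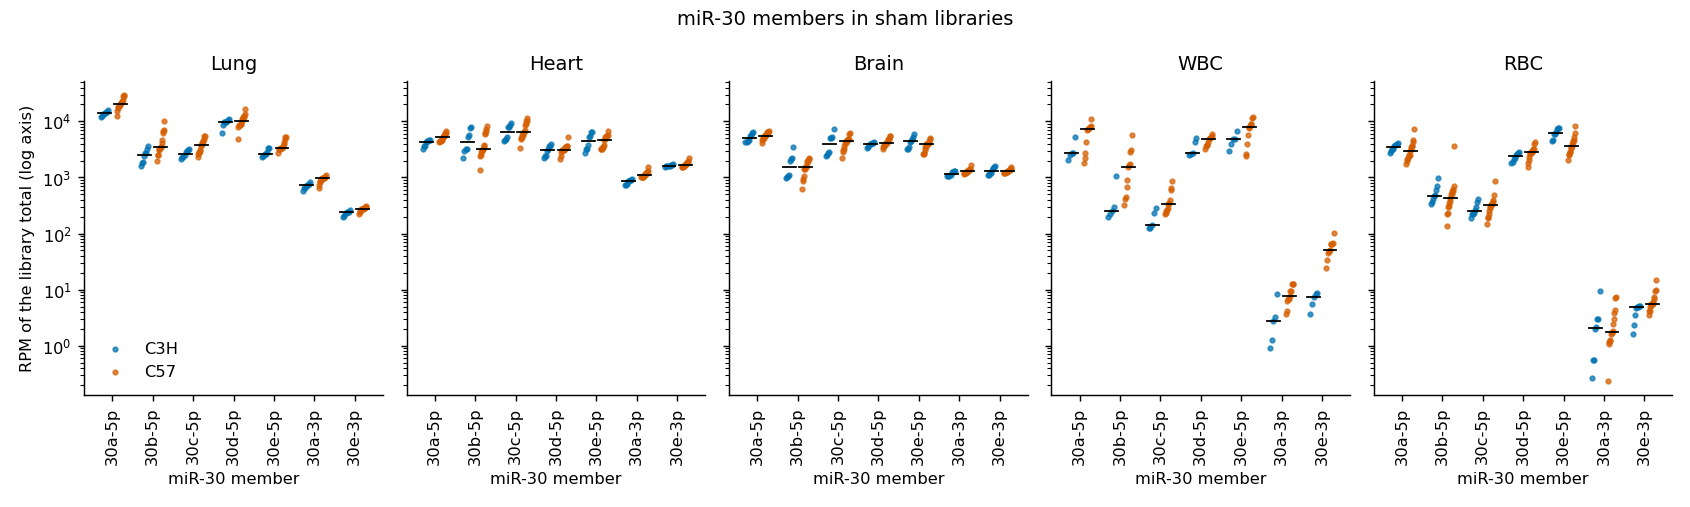
RPM (log axis) of each of the 7 members in every sham library of lung, heart, brain, WBC and RBC, with a bar at the median. The 5p arms of miR-30a and miR-30d are highest in lung, miR-30e-5p varies little between tissues, and both 3p arms fall to between 0.238 and 103 RPM in WBC and RBC.

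The 3p arms followed another pattern. miR-30e-3p had 1521 to 2251 RPM in heart (median 1688), 1087 to 1632 in brain (median 1307), 198 to 315 in lung (median 262), 3.75 to 103 in WBC (median 46.5) and 1.65 to 14.8 in RBC (median 5.12). The ranges of heart and brain were both above that of lung, and that of lung was above those of blood. Heart exceeded lung 6.66-fold (adjusted p = 3.62e-52), whereas miR-30a-5p was 3.67-fold higher in lung than in heart (adjusted p = 1.76e-27). miR-30a-3p had medians of 1258 RPM in brain, 1033 in heart, 853 in lung, 6.80 in WBC and 1.87 in RBC. Heart and lung did not pass the test for it (adjusted p = 0.0671), and the order of brain against heart and lung turned with the scaling. Counts behind the 3p arms were low in blood, where miR-30a-3p had 1 to 26 counts in a sham RBC library and 4 to 65 in a sham WBC library.

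The 5p arm was counted more often than the 3p arm of its hairpin in all 5 tissues, by very different factors. The ratio of 5p to 3p counts needs no scaling between libraries and was taken as a geometric mean. For miR-30a, 5p counts were 21.4 times the 3p counts in sham lung (16.4 to 34.0 over 23 libraries), 4.67 times in heart (2.90 to 6.23), 4.29 times in brain (3.41 to 5.33), 791 times in WBC (233 to 2653) and 1558 times in RBC (384 to 12806). For miR-30e, the ratios were 12.9 in lung (9.77 to 18.7), 2.56 in heart (1.47 to 4.05), 2.95 in brain (2.14 to 3.94), 207 in WBC (37.6 to 999.8) and 835 in RBC (333 to 4212). These pool the strains, whose miR-30e ratios did not overlap in WBC (396 to 999.8 in C3H, 37.6 to 304 in C57) and overlapped little in RBC (937 to 4212 and 333 to 1122). Lung lay above heart and brain in 23 of 23 animals for both hairpins, and below WBC in 16 of 16 and below RBC in 23 of 23.

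All 20 tests of arm ratios between tissue pairs passed. They were two-sided permutation tests that exchanged the 2 tissues of an animal, adjusted over the 20 tests. The ratio was 4.58-fold higher in lung than in heart for miR-30a (log2 SD 0.34, n = 23 animals) and 5.02-fold higher for miR-30e (log2 SD 0.39), each with an adjusted p of 2e-05 (the smallest raw p that the 100000 resamples can give is 1e-05). Heart and brain were closest. The miR-30a ratio was higher in heart in 15 of 23 animals (0.12 on the log2 scale, SD 0.27, adjusted p = 0.0379), and the miR-30e ratio was higher in heart in 10 of 23 (-0.20, SD 0.46, adjusted p = 0.0471). WBC and RBC differed in miR-30a by -0.79 (SD 1.28, RBC higher in 11 of 16, exact p = 0.0273, adjusted p = 0.0303) and in miR-30e by -1.99 (SD 1.36, RBC higher in 16 of 16, exact p = 3.05e-05, adjusted p = 3.59e-05).

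The other hairpins were not tested. Their 3p arms had medians of 52, 539 and 99 counts in sham lung for miR-30b, miR-30c and miR-30d. In sham libraries of lung, heart and brain, the geometric mean of 5p to 3p counts was 210, 211 and 91.9 for miR-30b, 20.6, 63.1 and 19.8 for miR-30c (both 3p entries summed) and 349, 132 and 157 for miR-30d. For miR-30b, miR-30c and miR-30d, the 3p arms were at 0 counts in at least 1 sham library of WBC and of RBC, so no ratio is compared there. The lung-high ratio of miR-30a and miR-30e against both heart and brain was also seen for miR-30d but not for miR-30b or miR-30c.

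**Figure D3:**
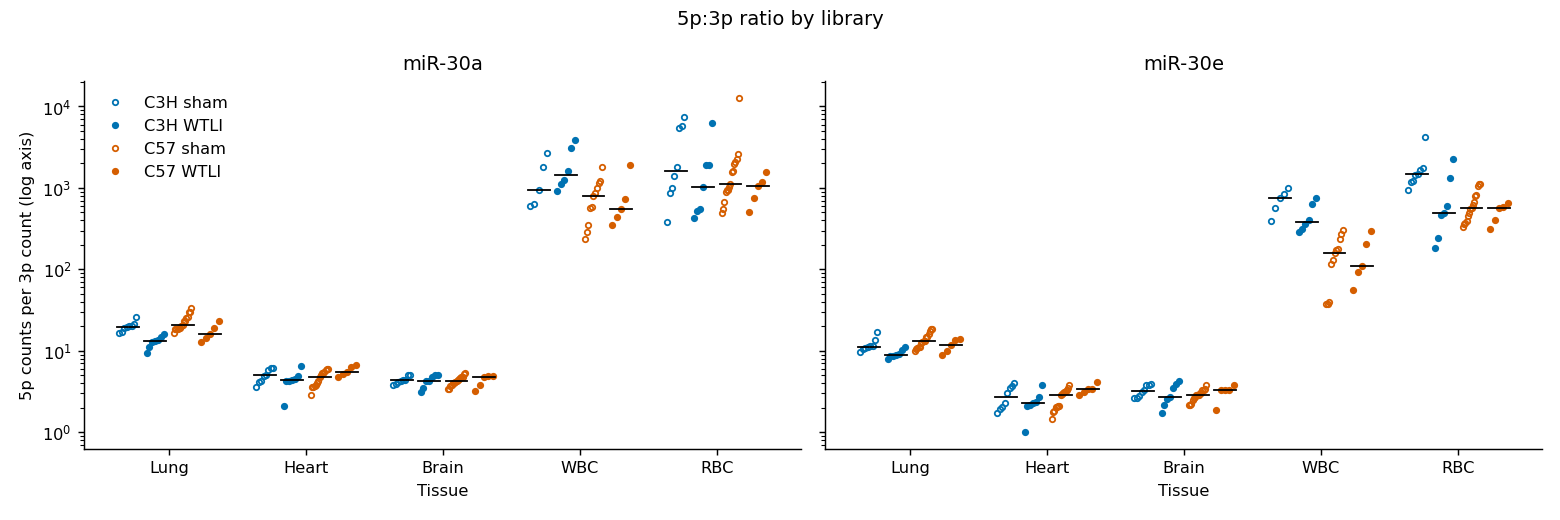
Ratio of 5p to 3p counts (log axis) of miR-30a and miR-30e in each library by tissue and strain, with sham libraries open and irradiated libraries filled. Ratios are lowest in heart and brain, higher in lung and highest in WBC and RBC, and the irradiated C3H lungs (9.33 to 15.9 for miR-30a) lie below all sham C3H lungs (16.4 to 26.1).

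In irradiated lung most of the family was lower, in both strains. In C3H, 5 of 7 members fell (33.4% of the 350 miRNAs tested passed in either direction, 17.1% as lower) and none rose. In C57, 4 of 7 fell (16.6% passed in either direction, 7.14% as lower) and none rose. After quantile normalisation the fitted changes were below 0 for 7 of 7 members in each strain, a direction that turned for miR-30e-3p in C3H on library totals, for miR-30d-5p in C3H within one title letter and for miR-30b-5p in C57 without irradiated replicate 5, none of which passed under these alternatives. The median change was -0.51 on the log2 scale over the members against -0.08 over all miRNAs in C3H, and -0.39 against -0.05 in C57. In bulk tissue, fewer cells of a type and less miRNA per cell cannot be told apart. No member reached the 2.25-fold minimum that the study set, while 9.71% of all tested in C3H and 6% in C57 both passed the test and reached it. Tests were limma's moderated tests on quantile-normalised log2 RPM, adjusted over all miRNAs tested in the tissue.

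miR-30a-5p, the most abundant member in lung, had 12044 to 15831 RPM in the 8 sham C3H lungs (median 13975) and 6020 to 10381 RPM in the 7 irradiated ones (median 8316). All 7 irradiated C3H lungs lay below all 8 sham lungs. It fell by 0.77 ± 0.15 on the log2 scale (SE, 0.588-fold, adjusted p = 0.000169). In C57, the 15 sham lungs had 12312 to 29138 RPM (median 20688), and the 5 irradiated lungs had 7456, 11294, 11455, 14739.5 and 17011 RPM. Of these 5, 3 lay below all sham lungs and all 5 below the sham median. It fell by 0.66 ± 0.15 (SE, 0.633-fold, adjusted p = 0.00184).

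miR-30c-5p changed most in C3H. Sham C3H lungs had 2146 to 3279 RPM (median 2646) and irradiated ones 994 to 1623 RPM (median 1364), again with no overlap. It fell by 1.13 ± 0.15 on the log2 scale (SE, 0.457-fold, adjusted p = 3.91e-07). Non-overlap of this kind, with all irradiated below all sham lungs, was found for 2 of 7 members, miR-30a-5p and miR-30c-5p, and for 1.71% of the miRNAs tested. In C57, sham lungs had 2302 to 5588 RPM (median 3837) and irradiated lungs 1666, 1916, 2488, 2733 and 2939.7 RPM. The C57 groups overlapped, 2 of 5 irradiated lungs being below all sham lungs. It fell by 0.68 ± 0.15 (SE, 0.624-fold, adjusted p = 0.00111).

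miR-30a-3p, the arm opposite miR-30a-5p, was lower in both strains once libraries were normalised. Sham C3H lungs had 573 to 841 RPM (median 726) and irradiated ones 601 to 770.3 RPM (median 635), which overlapped fully, and sham C57 lungs had 658 to 1103 RPM (median 962) against 585, 705, 727, 775 and 795 RPM after WTLI. It fell by 0.51 ± 0.12 in C3H (SE, adjusted p = 0.00127) and by 0.53 ± 0.12 in C57 (adjusted p = 0.00161). The raw means in C3H were closer, 709 RPM in sham and 651 RPM after WTLI (log2 ratio -0.12), and miR-30a-3p did not pass there on library totals. In C57 the raw means were 930 and 717 RPM (log2 ratio -0.37). miR-30e-5p had 2315 to 3376 RPM in sham (median 2633) and 1472 to 2729 RPM in irradiated C3H lungs (median 2268), with 4 of 7 irradiated lungs below all sham lungs. It fell by 0.47 ± 0.13 in C3H (SE, adjusted p = 0.00544), and its change in C57 was -0.26 ± 0.13 (adjusted p = 0.148).

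The remaining members were less clear. miR-30b-5p had 1633 to 3627 RPM in sham (median 2557) and 828 to 2127 RPM in irradiated C3H lungs (median 1699.7), and 3 of 7 irradiated lungs were below all sham lungs. It fell by 0.75 ± 0.28 in C3H (SE, adjusted p = 0.0336), a call lost when any of sham replicates 1 to 4 or irradiated replicates 1, 2 and 7 was left out (adjusted p 0.0514 to 0.0937). Its change in C57 was -0.16 ± 0.27 (adjusted p = 0.706). miR-30e-3p fell by 0.33 ± 0.12 in C57 (SE, adjusted p = 0.0475), from 221 to 315 RPM in sham lungs (median 278) to 209, 225, 254, 276 and 300.1 RPM, and this call was lost when any of irradiated replicates 1, 2 and 5 or of sham replicates 6, 7, 8, 9, 11, 12, 13 and 15 was left out (adjusted p 0.0539 to 0.177). In C3H its change was -0.20 ± 0.12 (adjusted p = 0.202). miR-30d-5p, the second most abundant member, had changes of -0.21 ± 0.17 in C3H (adjusted p = 0.349) and -0.39 ± 0.16 in C57 (adjusted p = 0.0892), where it passed without sham replicate 4 (-0.47, adjusted p = 0.0153).

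**Figure D4:**
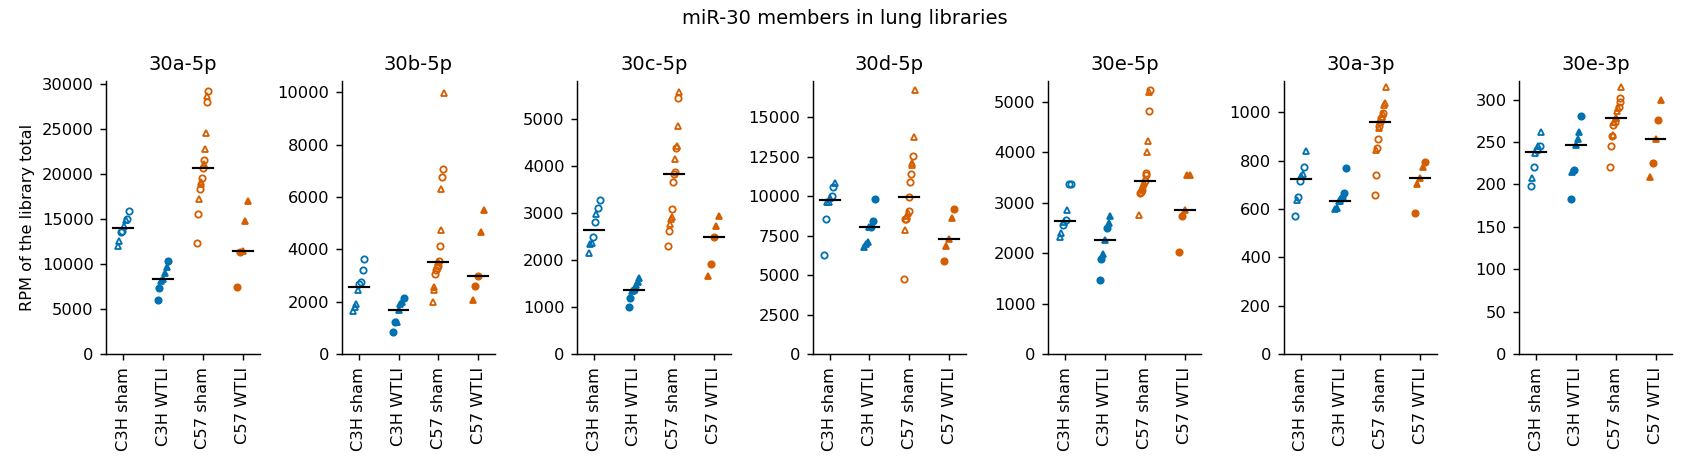
RPM of each member in every lung library, by strain (blue C3H, orange C57) and irradiation (open sham, filled WTLI), with circles for the letter A and triangles for the letter B of the sample titles and a black bar at the median. The filled C3H points of miR-30a-5p (6020 to 10381 RPM) and miR-30c-5p (994 to 1623 RPM) lie below all open C3H points.

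The size of these changes depended on the scaling, while the direction of the changes called after quantile normalisation did not. Without normalisation beyond the library total, the median change of all 350 lung miRNAs was 0.27 in C3H and 0.12 in C57 on the log2 scale, the members' medians were -0.34 and -0.37, and 2 members passed in C3H (miR-30a-5p and miR-30c-5p) and 3 in C57. On that scale, calls over all miRNAs were 95 higher and 21 lower in C3H, against 57 and 60 after quantile normalisation, and 60 and 12 in C57, against 33 and 25. With trimmed-mean (TMM) scaling, 7 members passed in C3H and 5 in C57. For miR-30e-3p in C3H both the call and the sign of the change depended on the scaling. It was called lower with TMM (-0.27, adjusted p = 0.0331, limma), whereas on library totals it was not called and its change was 0.023 (adjusted p = 0.897). Its raw means were 232 RPM in sham and 237 RPM after WTLI.

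Sex and the title letters were unevenly spread. The C57 comparison set 1 female and 4 males against 7 females and 8 males, and in C57 males alone 0 members passed (limma), with changes of -0.66 for miR-30a-5p (adjusted p = 0.186) and -0.63 for miR-30c-5p (adjusted p = 0.253). Sample titles carried a letter, A or B, whose meaning is not stated. Within letter A the changes in C3H were -0.84 for miR-30a-5p and -1.33 for miR-30c-5p, and within letter B they were -0.70 and -0.99. In C57 they were -0.88 and -0.73 within A, where no member passed with 2 irradiated lungs, and -0.50 and -0.67 within B. miR-30d-5p in C3H was 0.13 within A (adjusted p = 0.763) and -0.54 within B (adjusted p = 0.0478).

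No member passed the test of a strain difference in its lung change. The test of the interaction called 0 of 7 members (0.286% of all tested), 1 at an unadjusted p under 0.05, and edgeR and DESeq2 also called 0. The smallest p was that of miR-30c-5p (C3H minus C57 -0.45 ± 0.21, SE, p = 0.0379, adjusted p = 0.349, limma), and miR-30b-5p had a larger but less precise difference (-0.59 ± 0.38, adjusted p = 0.507). The 95% intervals of the change in miR-30a-5p were -1.06 to -0.47 in C3H and -0.95 to -0.36 in C57.

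Markers of cell types moved in the same lungs. In C3H, 4 of 4 cardiac muscle markers were lower after WTLI, their sum being 4759 to 7515 RPM in sham and 2569 to 5226 RPM in irradiated lungs. Of 2 endothelial markers 1 was lower, with sums of 380361 to 444378 and 297017 to 390147 RPM. The other, miR-126a-3p, ranked first in every C3H lung library, so that quantile normalisation fixed its change at 0 and it could not pass. Of 5 epithelial markers 1 was lower, with sums of 12588 to 22592 and 8381 to 22738 RPM. Of 5 leukocyte markers 0 passed, with sums of 3397 to 4826 and 2552 to 7019 RPM. In C57, 1 of 4 cardiac muscle markers was lower (2724 to 7697 RPM in sham, 2701 to 8560 RPM after WTLI), and 0 of 2 endothelial, 0 of 5 epithelial and 0 of 5 leukocyte markers passed. Of the other lists, 1 of 5 ciliated epithelium markers, miR-449a-5p, was higher in both strains (1.51 in C3H, adjusted p = 3.1e-05, and 0.76 in C57, adjusted p = 0.0326, limma), their sums being 3408 to 5242 RPM in sham and 2960.4 to 6186 RPM after WTLI in C3H, and 6104 to 12705 and 5768 to 11055 RPM in C57. Of 5 mesenchymal markers, 1 was higher in C3H (miR-199a-3p, 0.61, adjusted p = 3.1e-05; sums of 47413 to 57360 and 39903 to 69762 RPM) and 1 lower in C57 (miR-145a-5p, -0.53, adjusted p = 0.0475; 48362 to 80589 and 49753 to 62839 RPM). Of 4 brain markers, 0 passed in C3H (83.6 to 544 and 143 to 197 RPM) and 1 was higher in C57 (miR-9-5p, 1.33, adjusted p = 0.0326; 61.0 to 208 and 128 to 616 RPM). Of 4 erythrocyte markers 0 passed in either strain (181 to 1134 and 289 to 2823 RPM in C3H, 106 to 2121 and 81.0 to 471 RPM in C57). No marker was at 0 in all lung libraries, and the part of these cell types in the family's change was not tested.

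**Figure D5:**
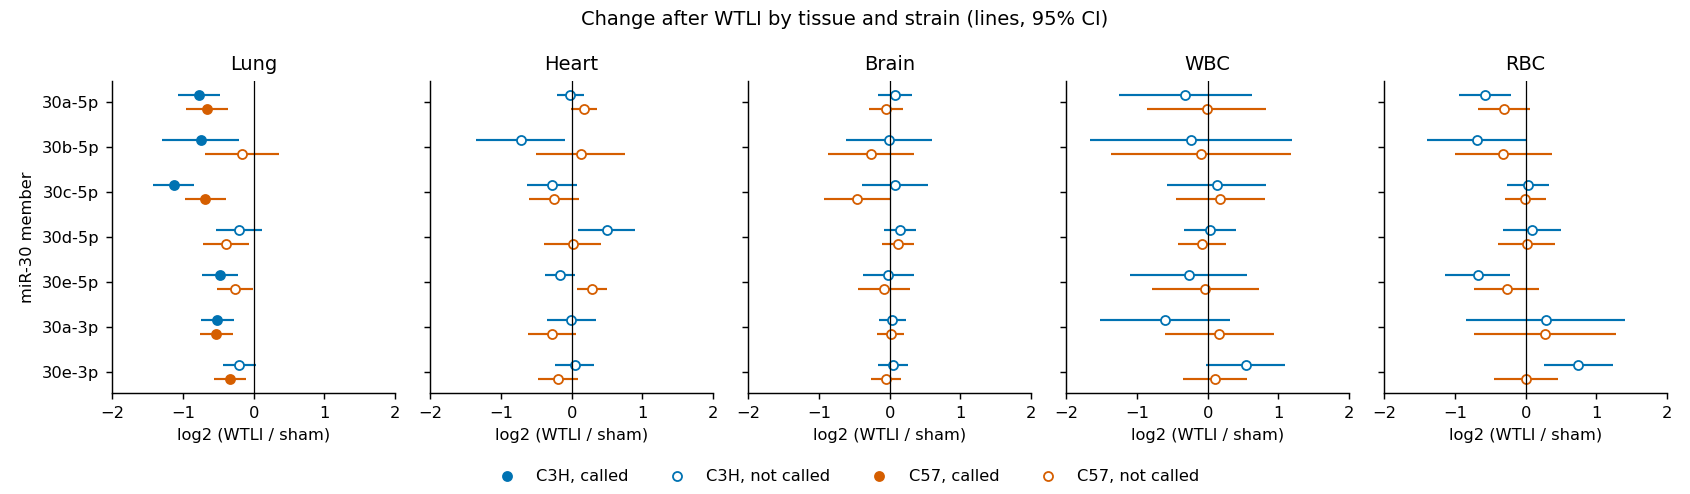
Fitted log2 change (irradiated minus sham) of each member in each tissue and strain, with lines for the 95% interval and filled points for an adjusted p under 0.05 (limma, quantile-normalised). The filled points, 5 in C3H and 4 in C57, are all in lung and below 0.

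In heart, the other organ of the thorax that was sequenced, 0 of 7 members passed in C3H (16.7% of 312 tested did) and 0 of 7 in C57 (3.53%) with limma, with 2 and 1 members at an unadjusted p under 0.05. This count depended on the method in C3H, where edgeR called 1 member, DESeq2 2, limma with TMM scaling 2 and limma on library totals 1. miR-30c-5p was called lower by all 4 of them. It had 4381 to 9311 RPM in the 8 sham C3H hearts (median 6526) and 1424 to 6757 RPM in the 7 irradiated ones (median 3793), with 6 of 7 irradiated hearts below all sham hearts. Its change was -0.27 ± 0.18 after quantile normalisation (SE, adjusted p = 0.277), against -0.68 with edgeR (adjusted p = 0.00724), -0.70 with DESeq2 (adjusted p = 0.00377), -0.73 with TMM scaling (adjusted p = 0.00429) and -0.86 on library totals (adjusted p = 0.0168).

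The other heart changes in C3H lay on both sides of 0. miR-30b-5p had 2230 to 8033 RPM in sham C3H hearts (median 4320) and 523 to 6603 RPM after WTLI (median 2416), a change of -0.72 ± 0.32 (SE, adjusted p = 0.117) that passed without irradiated replicate 1 (-0.93, adjusted p = 0.0272). miR-30d-5p had 2222 to 3916 RPM in sham (median 3073) and 2758 to 3625 RPM after WTLI (median 3384), a change of 0.49 ± 0.20 (adjusted p = 0.0937), which passed when sham replicate 5 or irradiated replicate 1 or 2 was left out (adjusted p 0.0389 to 0.0496). The C3H heart set apart by its cardiac markers held the lowest miR-30b-5p and miR-30c-5p and the highest miR-30a-3p (1209 RPM) and miR-30e-3p (2053 RPM) of its group. Without it 0 members passed, and the changes of miR-30b-5p and miR-30c-5p were -0.37 (adjusted p = 0.393) and -0.11 (adjusted p = 0.661). In miR-30e-3p this heart lay above all sham hearts and the other 6 irradiated ones below all of them. The miR-30e-3p change of 0.04 ± 0.14 (SE, adjusted p = 0.868) became -0.11 without this heart (adjusted p = 0.515). Markers of cell types moved in the same C3H hearts. Of the ciliated epithelium markers 4 of 4 tested were higher (62 to 200.2 RPM summed in sham, 184 to 724 RPM after WTLI). Lower were 2 of 4 erythrocyte markers (608 to 2740.0 and 331 to 1722 RPM), 1 of 5 leukocyte markers (miR-150-5p, -1.63, adjusted p = 1.42e-09, limma; 1065 to 10253 and 833 to 2656 RPM), 1 of 4 cardiac muscle markers (miR-499-5p, -0.85, adjusted p = 0.00613; 216176 to 291001 and 50690 to 246805 RPM) and 1 of 5 mesenchymal markers (miR-145a-5p, -0.89, adjusted p = 0.0250; 41644 to 81090 and 43820 to 71467 RPM). Of the endothelial, epithelial and brain markers 0 passed, with endothelial sums of 295324 to 352841 RPM in sham and 337464 to 416562 RPM after WTLI. miR-126a-3p ranked first in every heart library and could not pass after quantile normalisation, nor could the cardiac marker miR-1a-3p in C57, which ranked next in every library. In C57 hearts 2 of 4 ciliated epithelium markers were higher (28.8 to 123 and 77.8 to 178 RPM) and 1 of 5 leukocyte markers, miR-150-5p, was lower (-0.85, adjusted p = 0.000312; 986 to 2603 and 1776 to 2374 RPM), and 0 markers of the other lists passed. Cardiac muscle sums in C57 were 222477 to 298863 RPM in sham and 215940 to 245867 RPM after WTLI. The part of these cell types in the heart values was not tested.

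In C57 hearts, miR-30a-5p had 4355 to 6758 RPM in sham (median 5242) and 5455, 5891, 5912, 6236 and 6517 RPM after WTLI. All 5 irradiated hearts lay above the sham median and within the sham range. Its change was 0.18 ± 0.10 (SE, adjusted p = 0.403). The change of miR-30e-5p was 0.29 ± 0.11 (adjusted p = 0.137) and that of miR-30c-5p -0.25 ± 0.18 (adjusted p = 0.540). Over all miRNAs of C57 heart, 10 were called higher and 1 lower, against 10 and 4 with TMM scaling. The strain interaction called 0 members in heart (0% of all tested, limma), the smallest p being that of miR-30e-5p (C3H minus C57 -0.45 ± 0.15, p = 0.00596, adjusted p = 0.160), and edgeR and DESeq2 also called 0.

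The lung change was set against the heart change of the same strain in a joint fit. That fit normalised lung and heart libraries together, so its differences need not match the changes fitted in each tissue alone. In C3H 2 of 7 members differed (6.68% of 374 tested). The change in lung minus that in heart was -0.72 ± 0.17 for miR-30a-5p (SE, adjusted p = 0.00215) and -1.13 ± 0.24 for miR-30c-5p (adjusted p = 0.00086). In C57 2 of 7 differed (5.61%). The difference was -0.77 ± 0.17 for miR-30a-5p (SE, adjusted p = 0.00345) and -0.60 ± 0.18 for miR-30e-5p (adjusted p = 0.0263), both of which had heart changes above 0 that did not pass (0.18 and 0.29), and the lung change of miR-30e-5p (-0.26) did not pass either. In the joint fit the remaining members also had lung changes below their heart changes in both strains, by 0.12 to 0.69, without passing. For miR-30b-5p in C3H the joint difference was -0.30, against separately fitted changes of -0.75 in lung and -0.72 in heart. The direction turned on library totals for miR-30b-5p, miR-30e-5p and miR-30e-3p in C3H. On that scale 0 members passed in C3H, where the difference was -0.46 for miR-30a-5p (adjusted p = 0.121) and -0.13 for miR-30c-5p (adjusted p = 0.810), and 1 in C57, miR-30a-5p. With TMM scaling 4 and 2 passed.

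In brain, WBC and RBC no member passed in either strain with limma on all libraries of the tissue, and neither did any other miRNA (0% of 433 tested in brain, 0% of 291 in WBC and 0% of 229 in RBC). In brain and WBC 0 members had an unadjusted p under 0.05 in either strain, and edgeR and DESeq2 called 0. The brain changes in C3H were between -0.02 and 0.15 on the log2 scale. In C57 brain, miR-30c-5p had 2260 to 6165 RPM in sham (median 4421) and 2397, 3139, 3233, 3434 and 3546 RPM after WTLI. All 5 irradiated brains lay below the sham median and within the sham range, and the change was -0.45 ± 0.24 (SE, adjusted p = 0.451). Among C57 males alone it was -0.55 and passed (adjusted p = 0.0327). In WBC the spread was wide: the 95% interval for miR-30a-5p was -1.26 to 0.63 in C3H and -0.85 to 0.83 in C57.

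In RBC of C3H mice 3 members had an unadjusted p under 0.05 and 0 passed the adjustment with limma, whereas edgeR called 1 and DESeq2 2. In C57 RBC these counts were 0. miR-30a-5p had 2752 to 4074 RPM in sham C3H RBC (median 3447) and 660 to 3839 RPM after WTLI (median 2519). Of the 7 irradiated samples 6 lay below all sham samples. Its change was -0.57 ± 0.19 (SE, adjusted p = 0.142), and -0.55 with DESeq2 (adjusted p = 0.0163). miR-30e-5p, the leading member of RBC, had 4458 to 7760 RPM in sham (median 6250.4) and 1010.1 to 9310 RPM after WTLI (median 4850.1), a change of -0.68 ± 0.23 (adjusted p = 0.146). miR-30e-3p had 6 to 18 counts in sham and 9 to 52 after WTLI, and a change of 0.74 ± 0.25 (adjusted p = 0.142), which edgeR gave as 1.03 (adjusted p = 0.0319) and DESeq2 as 0.99 (adjusted p = 0.0191), and which passed with limma without irradiated replicate 4 (0.94, adjusted p = 0.0247).

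The balance of the arms shifted in irradiated C3H lung. Of 20 exact permutation tests of the 5p to 3p ratio (2 hairpins, 5 tissues and 2 strains, two-sided), 2 passed after adjustment over the 20, both in C3H lung. For miR-30a the ratio was 16.4 to 26.1 in sham (median 19.8) and 9.33 to 15.9 after WTLI (median 13.1), with 7 of 7 irradiated lungs below all sham lungs. It fell by 0.63 on the log2 scale (exact p = 0.000155, adjusted p = 0.00311), and by 0.94 within letter A and 0.36 within letter B. For miR-30e the ratio was 9.77 to 17.1 in sham (median 11.3) and 8.02 to 11.1 after WTLI (median 8.87), with 5 of 7 below all sham lungs. It fell by 0.37 (exact p = 0.00373, adjusted p = 0.0373), a call lost when any of 5 of the 7 irradiated lungs (replicates 1, 2, 3, 4 and 7) was left out (adjusted p = 0.0860 in each case). It was also lost when any sham lung but replicate 7 was left out (adjusted p 0.0524 to 0.0641), an alternative chosen after seeing the data.

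In C57 lung the miR-30a ratio was 16.5 to 34.0 in sham (median 21.0) and 12.7, 14.2, 16.3, 19.0 and 23.4 after WTLI. The difference was -0.42 on the log2 scale (exact p = 0.0198, adjusted p = 0.0990), which passed without irradiated replicate 4 (-0.54, adjusted p = 0.0361). In C57 heart the differences were 0.32 for miR-30a (exact p = 0.0575, adjusted p = 0.192) and 0.41 for miR-30e (exact p = 0.0537, adjusted p = 0.192). In C3H RBC the miR-30e ratio was 937 to 4212 in sham and 183 to 2239 after WTLI, a difference of -1.47 (exact p = 0.0129, adjusted p = 0.0860) that passed without irradiated replicate 1 (-1.67, adjusted p = 0.0444) or 4 (-1.80, adjusted p = 0.0133). The other 14 tests had exact p-values of 0.0887 or more.

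Sham females of the 2 strains were compared in each tissue. With limma after quantile normalisation, 2 of 7 members differed in lung (14.4% of all tested), while heart had 3 (31.6%), brain 0 (15%), WBC 2 (22.3%) and RBC 2 (18.3%). In brain, 0 members had an unadjusted p under 0.05 and edgeR called 1. In WBC, miR-30e-3p had 3.75, 5.55, 7.41, 8.55 and 8.85 RPM in C3H sham mice and 24.7 to 103 RPM in the 11 C57 sham mice of both sexes (median 51.1). These levels came from 15 to 42 counts in C3H and 110 to 315 in C57. The test set 4 C57 females against 5 C3H females, and the C57 females were higher by 1.63 ± 0.32 on the log2 scale (SE, adjusted p = 0.000628). They were also higher in miR-30a-3p, by 1.49 ± 0.36 (adjusted p = 0.00401), on 4 to 39 counts in C3H and 14 to 65 in C57.

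In lung, C57 sham females were higher than C3H in miR-30a-3p (994 against 709 RPM, 0.40 ± 0.11, SE, adjusted p = 0.0133) and miR-30e-3p (292 against 232 RPM, 0.35 ± 0.11, adjusted p = 0.0325). In heart they were higher in miR-30a-3p (1249.9 against 836 RPM, 0.72 ± 0.16, adjusted p = 0.00105), miR-30d-5p (3679 against 3033 RPM, 0.58 ± 0.18, adjusted p = 0.0188) and miR-30a-5p (4568 against 4145 RPM, 0.52 ± 0.09, adjusted p = 5.23e-05). On library totals, of these 3 only miR-30a-3p passed (0.58, adjusted p = 0.000153). In RBC, miR-30e-5p was lower in C57 (4292 against 6282 RPM, -0.72 ± 0.23, adjusted p = 0.0267) and miR-30e-3p higher (7.69 against 4.04 RPM, 0.78 ± 0.25, adjusted p = 0.0241). On library totals 0 members passed in RBC and 5 in WBC.

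C57 sham females and males were compared in each tissue, and the members called in heart and WBC were near the share of all miRNAs. In heart 3 of 7 members differed after quantile normalisation (34.9% of all tested), with females higher in miR-30a-5p by 0.23 ± 0.09 (SE, adjusted p = 0.0464, limma), in miR-30a-3p by 0.40 ± 0.16 (adjusted p = 0.0475) and in miR-30d-5p by 0.57 ± 0.18 (adjusted p = 0.0175). The mean of miR-30a-5p on library totals was in the opposite order, 4568 RPM in females and 5843 RPM in males, whereas those of miR-30a-3p (1249.9 and 1068 RPM) and miR-30d-5p (3679 and 2911 RPM) were in the same order. In WBC 1 member differed (11.1% of all tested), miR-30a-3p, which was higher in females (11.9 against 6.38 RPM, 1.57 ± 0.33, adjusted p = 0.00506). With limma 0 members differed in lung (6.05%), brain (21.3%) and RBC (14.4%), where 3, 1 and 2 had an unadjusted p under 0.05.

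Over the means of the 20 groups (5 tissues, 2 strains, sham or WTLI), the members did not form 1 pattern. As a description, Pearson's r of log2 RPM was 0.93 between miR-30a-5p and miR-30d-5p, and 0.97 between miR-30c-5p and miR-30a-3p, which come from different hairpins. miR-30e-5p had r between -0.37 and -0.01 with each other member, miR-30e-3p of its own hairpin included (-0.10). These groups share tissues and animals, so they are not independent. Among 106 other miRNAs with at least 10 RPM in each tissue, the 5 whose group means were most like the mean of the 7 members were miR-29c-3p (r = 0.986), miR-27b-3p (0.983), miR-23b-3p (0.977), miR-29b-3p (0.973) and miR-143-3p (0.968).

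The family was set beside a list of 21 miRNAs known to act on matrix or TGF-beta transcripts. In C3H lung 2 of 21 rose and 5 fell, where 33.4% of all miRNAs tested passed, and in C57 lung 1 rose and 1 fell (16.6%). In C3H heart 3 rose and 1 fell (16.7%), and in C57 heart 2 rose and none fell (3.53%). In C3H lung, miR-21a-3p, of a hairpin known for its increase in injured tissue, rose by 1.47 ± 0.36 (SE, adjusted p = 0.00177), while miR-101a-3p fell by 1.01 ± 0.17 (adjusted p = 3.1e-05) and miR-133a-3p, a muscle miRNA, by 0.87 ± 0.20 (adjusted p = 0.000948). The median of the list in lung was -0.23 in C3H and -0.01 in C57, against -0.51 and -0.39 for the miR-30 members.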

How the data were processed

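Small RNA libraries of lung, heart, brain, WBC and RBC (QIAseq miRNA kit) were sequenced and assigned to mouse miRNAs (mm10) by the authors. The deposited values were raw read counts of 1915 miRNAs per library, with no normalisation. How reads matching several miRNAs were assigned was not given in the sources used here. The tables held 0 columns of no sample. Plasma was not analysed here.

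Groups came from the sample labels. Counts were filtered with filterByExpr (count minimum 10, total minimum 15), transformed by voom with quantile normalisation and tested with limma 3.58.1 in R 4.3.3 (1 fit per tissue, 4 groups; two-sided, Benjamini-Hochberg, threshold 0.05). Sham tissues were compared on library totals without further normalisation. Strains were compared in a fit that separated the sexes, and lung with heart in a joint fit. Arm ratios, log2((5p + 0.5)/(3p + 0.5)) of the counts, were tested by permutation in Python 3.11.15 (numpy 2.4.6). edgeR 4.0.16, DESeq2 1.42.0, other scalings and filters, sex or letter as a covariate, subsets and leaving out each library were alternatives. Intervals of single counts cover counting error only.

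Titles gave the animal. Tissues of an animal were paired in the tests of arm ratios between tissues. The limma tests between tissues and of lung minus heart treated libraries as independent, with the animal as a block only as an alternative. Deviations of an animal from its group means had median correlations of -0.08 to 0.14 between tissues. Libraries of a group always differed beyond counting noise (smallest chi-square per degree of freedom 17.8). On simulated lung counts for C3H, 75 of 75 changed miRNAs were recovered among 347 tested, with 12 unchanged ones called. The planted changes were larger than any change fitted for a member in lung, so recovery of changes of the members' size was not tested. The text names the 7 members, other miR-30 entries, the 5 miRNAs most like the family mean at most 4 of the matrix list per comparison and, chosen after their values were seen, miR-384-5p and called or fixed markers of cell types. The members and lists were chosen with earlier results of these data known.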

Additional observations from a re-analysis of the deposited data

Results flagged for a closer look

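A value was listed when its gap to the nearest library of its group was large for the range of that group (Dixon's test at the 95% level, groups of 4 to 10). Of 135 such tests 13 were positive, and chance gives about 1 in 20. Irradiated C3H heart replicate 3 gave 5 of them. It had the lowest miR-30b-5p (523 RPM) and miR-30c-5p (1424 RPM), the highest miR-30a-3p (1209 RPM) and miR-30e-3p (2053 RPM) and the lowest miR-30a 5p to 3p ratio (2.12) of its group. Irradiated C57 brain replicate 5 gave 3, with the lowest miR-30b-5p (591 RPM), miR-30e-5p (2149 RPM) and miR-30e ratio (1.86) of its group. In lung, sham C3H replicate 2 had the lowest miR-30d-5p (6270.3 RPM) and irradiated C3H replicate 3 the highest miR-30a-3p (770.3 RPM). In blood, irradiated C57 RBC replicate 5 had the highest miR-30a-5p (3827 RPM), sham C3H WBC replicate 1 the highest miR-30b-5p (1048 RPM) and sham C3H RBC replicate 6 the highest miR-30e ratio (4212).

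The change after WTLI differed between lung and heart by a test of the difference itself (limma). In C3H, lung minus heart was -0.72 for miR-30a-5p and -1.13 for miR-30c-5p on the log2 scale, but -0.46 and -0.13 on library totals, where neither passed. In C57 it was -0.77 for miR-30a-5p and -0.60 for miR-30e-5p, the latter not passing on library totals.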

How the results depend on the processing

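In the WTLI, interaction and lung-minus-heart comparisons, no value of a member that passed its test, in the chosen or in the alternative analysis, turned its direction between the chosen analysis and that alternative. Among 280 values of tissue differences 40 did, none of them in lung against heart, lung against blood or WBC against RBC, and the cause was not tested. The values below are log2 differences, tissue named first minus tissue named second, under TMM scaling, quantile normalisation and edgeR in that order. For lung and brain they were 0.41, 0.30 and 0.36 for miR-30c-5p, 0.44, 0.33 and 0.43 for miR-30e-5p, and 0.13, 0.91 and 0.13 for miR-30a-3p. For heart and brain they were 0.94, 0.81 and 0.94 for miR-30a-5p, 0.74, 0.73 and 0.83 for miR-30d-5p, and 0.80, 1.78 and 0.84 for miR-30a-3p. For brain and WBC they were -0.88, -1.14 and -1.09 for miR-30a-5p, -0.059, -1.36 and -0.43 for miR-30b-5p, and -1.26, -1.56 and -1.33 for miR-30d-5p. For brain and RBC they were -0.84, -0.91 and -0.87 for miR-30a-5p and -0.88, -1.18 and -0.91 for miR-30d-5p, and for miR-30b-5p -1.44 under quantile normalisation and -0.079 with edgeR. For heart and RBC they were -0.14, -0.45 and -0.081 for miR-30d-5p, and -0.091 for miR-30a-5p under quantile normalisation, which also gave -0.32 for miR-30a-5p in heart and WBC.

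Of the 5 members called in C3H lung, 2 were called on library totals, 3 with letter A alone and 0 with the fold minimum of the study. Of the 4 called in C57 lung, 0 were called with the fold minimum, 0 in males alone and 0 with letter A alone. The 0 called in C3H heart became 1 with edgeR, 2 with DESeq2, 2 with TMM scaling, 1 on library totals and 1 with sex as a covariate. In C57 males alone 1 was called in heart and 1 in brain. In C3H RBC 1 was called with edgeR and 2 with DESeq2. Lung minus heart differences in C3H were 4 with TMM scaling, 4 with edgeR and 0 on library totals, and in C57 1 on library totals. Strain differences were 5 in lung and 1 in WBC when sham mice of both sexes were used, 1 in heart, 5 in WBC and 0 in RBC on library totals, and 1 in brain with edgeR and 1 with TMM scaling.

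Leaving out each replicate in turn gave 4 to 5 members called in C3H lung, 3 to 5 in C57 lung, 0 to 2 in C3H heart, 0 to 1 in C3H RBC, and 0 in C57 heart and RBC and in brain and WBC of both strains. It gave 1 to 3 changed arm ratios, for which leaving out sham libraries was added after seeing the data. With the animal as a replicate block for the paired tissues, 2 members differed between lung and heart in their change in C3H and 2 in C57, as without the block, and in sham mice 6 members in place of 5 differed between heart and WBC, the other 9 tissue pairs keeping their counts.

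Library totals were 1795000 counts or more, but RBC libraries held as few as 1 count of miR-30a-3p, so its differences there are imprecise. Only 2 irradiated C57 lungs carried the letter A and 1 was female, which limits the values within letter or sex. The smallest exact p for the C3H WBC arm ratios was bounded by 462 splits.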

Other observations

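The 3p arms outside the 7 members gave values that belong in none of the comparisons. In C3H lung, miR-30b-3p had 8.86 to 16.6 RPM in the 8 sham mice (median 12.6) and 11.4 to 24.8 RPM in the 7 irradiated mice (median 17.9), so the groups overlapped, while its 5p arm was lower after WTLI. The ratio of miR-30b-5p to miR-30b-3p was 126 to 346 in sham and 65.9 to 118 in irradiated C3H lungs, with no overlap, on 29 to 95 counts of the 3p arm. The miR-30c ratio (both 3p entries summed) was 14.14 to 26.5 in sham and 6.19 to 14.06 in irradiated C3H lungs, also with no overlap. For miR-30d it was 323 to 560 and 228 to 378, which overlapped. These ratios were not tested. miR-30d-3p had 14.5 to 26.4 RPM in sham (median 21.7) and 22.0 to 32.9 RPM in irradiated C3H lungs (median 27.3). miR-30c-2-3p had medians of 134 RPM in sham and 132 RPM in irradiated C3H lungs, and miR-30c-1-3p of 1.51 and 2.33 RPM, on 4 to 12 counts.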
